A study of Mus musculus with 16 samples.

Results

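The 4 transcription factors through which Wnt/beta-catenin signalling acts on genes, Lef1, Tcf7, Tcf7l1 and Tcf7l2, and 6 genes that the same signalling switches on, Axin2, Nkd1, Nkd2, Sp5, Rnf43 and Znrf3, were followed through the growth of the mouse first molar. They are 10 of the 23337 genes in the deposited count tables, taken by name, and all 10 were well above the filter on low counts, the lowest value being 229 counts for Sp5. The 16 libraries were poly(A) RNA of first molar germs, the tooth primordia of the embryonic jaw: 8 were labelled upper and 8 lower, with 1 of each at ED14.5 (ED, embryonic day) and at every step of 0.5 days up to ED18.0. By the labels, every library came from a wild-type male of CD1, an outbred mouse strain, with the left and right germ pooled. The labels also give both libraries of a stage as from 1 individual, numbered 1 to 8 in order of stage. Stage and individual are therefore the same factor, and p-values measure scatter about a smooth course over stages.

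In canonical Wnt signalling, secreted Wnt proteins bind Frizzled receptors with Lrp5 or Lrp6 co-receptors at the cell surface. The complex that destroys beta-catenin is then held in check, and beta-catenin enters the nucleus and binds Tcf and Lef proteins on DNA. Several of the genes switched on this way damp the signal: Axin2 is a scaffold of the destruction complex, Nkd1 and Nkd2 bind Dishevelled, and Rnf43 and Znrf3 are ubiquitin ligases that remove Frizzled from the membrane. In the tooth the pathway works in both epithelium and mesenchyme, its activity is high in the epithelial signalling centres called enamel knots, and mouse teeth that lack Lef1 stop growing at the bud stage.

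Gene counts totalled 33146758 to 38584429 per library under the upper label and 35918529 to 44565205 under the lower. Levels are given as CPM, a gene's counts scaled by the gene total of its library. The labels need care: Pou3f3, a transcription factor gene of the upper jaw, lay at 6.45 to 10.1 CPM in individuals 1, 3, 5 and 7 and at 109.5 to 131.5 CPM in individuals 2, 4, 6 and 8 of the libraries labelled upper. In the libraries labelled lower it ran from 4.45 to 5.46 CPM and from 60.1 to 86.2 CPM in the same order. Nkx2-3, a homeobox gene in the list of jaw markers, alternated the other way: over both labels, individuals 1, 3, 5 and 7 had 19.2 to 56.2 CPM and the others at most 0.112 CPM. Dlx5 and Dlx6, known for the lower jaw, were higher in individuals 1, 3, 5 and 7 at all 7 steps between neighbouring stages of both labels. Both libraries of an individual were thus alike in Pou3f3 and Nkx2-3. Whether the tooth, stage or individual of some libraries was exchanged was not tested. Each label difference, stage slope and comparison within individuals below holds for the labels as given. The tooth is therefore called by its label throughout, and the contrast of individuals 1, 3, 5 and 7 with individuals 2, 4, 6 and 8, here the alternating contrast, is given beside the contrast of the labels. Upper and lower labels also ran on separate flow cells, so flow cell and tooth label cannot be told apart. All 7 dental epithelium markers and all 8 dental mesenchyme markers were detected, summing to 2716 to 4677 CPM and 2485 to 4405 CPM per library.

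Tcf and Lef proteins bind DNA at a core that begins with CTTTG. The 6 letters CTTTGA and CTTTGT were searched on both strands, from 250 bases before to 50 bases after each RefSeq gene start of the build GRCm38.p6. A sequence was at hand for 9 of the 10 genes, all but Znrf3. Sp5 is shown because it held the most matches of the 9 and changed with stage, Lef1 because a start inside the gene held 3 matches, and Axin2 because it is the most used readout of the pathway. The 250 bases before the start are printed 5′ to 3′ on the gene's strand, and capitals mark the matches.
Sp5, chr2:70474673-70474922, plus strand: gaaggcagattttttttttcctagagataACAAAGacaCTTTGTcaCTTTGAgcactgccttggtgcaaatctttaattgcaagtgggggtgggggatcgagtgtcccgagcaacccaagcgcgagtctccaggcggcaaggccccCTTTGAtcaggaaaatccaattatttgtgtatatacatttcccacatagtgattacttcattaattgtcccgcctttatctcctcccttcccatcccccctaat
Lef1 internal start, chr3:131156044-131156293, plus strand: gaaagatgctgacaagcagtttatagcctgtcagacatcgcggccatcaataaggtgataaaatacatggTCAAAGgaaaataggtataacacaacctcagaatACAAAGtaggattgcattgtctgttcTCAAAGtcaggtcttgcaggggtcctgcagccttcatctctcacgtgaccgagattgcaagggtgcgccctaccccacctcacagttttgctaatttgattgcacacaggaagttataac
Axin2, chr11:108920099-108920348, plus strand: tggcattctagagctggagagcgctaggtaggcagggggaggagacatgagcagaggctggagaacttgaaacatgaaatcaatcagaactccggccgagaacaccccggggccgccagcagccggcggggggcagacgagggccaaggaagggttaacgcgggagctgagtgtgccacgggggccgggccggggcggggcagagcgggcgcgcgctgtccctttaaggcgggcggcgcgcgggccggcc
The Sp5 window held 5 matches, 2 of CTTTGA and 3 of CTTTGT, beginning at -221, -212, -204, -104 and 41 bases from the start, so that the last lies outside the printed stretch. The match at -104 is also a match of the longer ATCAAAG, which overlaps CTTTGA. At least 5 matches were found in 12 of 32851 windows, 0.0365%. The internal start of Lef1 had 2 matches of CTTTGA and 1 of CTTTGT, and at least 3 matches were found in 1.14% of windows. The other 3 windows of Lef1 held none. Tcf7l1 had 1 match of CTTTGT at -28, Tcf7l2 had 1 at -14 of an internal start, and 31.2% of all windows held at least 1 match of either. CTTTGA stood in 5257 of the windows, CTTTGT in 6147 (18.7%) and ATCAAAG in 1225 (3.73%). The windows of Axin2, Tcf7, Nkd1, Nkd2 and Rnf43 held no match, which speaks only of these letters in these windows.

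All 10 genes are on autosomes. In the GENCODE M21 annotation, on the same build, Sp5 is a 2-exon gene on chromosome 2 (70474923 to 70477729), Lef1 lies on chromosome 3 (131110471 to 131224356), Axin2 on chromosome 11 (108920349 to 108950783) and Tcf7 on chromosome 11 (52252371 to 52283014). Exons of Axin2, Lef1 and Tcf7l1 overlap exons of an antisense gene by 209, 1208 and 179 bases, and since the library kit does not mark strand, reads of those stretches cannot be assigned to either gene. The other 7 genes had no exon overlap with another gene.

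Levels per kilobase of exon allow a rough comparison of genes. The lengths are of all annotated exons of a gene, not of the transcripts expressed. On this scale Tcf7 stood highest with a mean level of 54.3 ± 18.3 CPM per kb (SD, n = 16 libraries) and Tcf7l1 followed at 28.1 ± 3.68. Axin2 (16.8 ± 2.35), Nkd1 (13.5 ± 1.37) and Lef1 (12.3 ± 2.27) formed a middle group whose neighbours overlap within their spread. Nkd2 (6.35 ± 1.0), Rnf43 (5.98 ± 0.853), Znrf3 (5.97 ± 0.52), Sp5 (5.82 ± 2.23) and Tcf7l2 (4.57 ± 0.338) were lowest, and neighbours in this order also lay within their spread. Averaged over the libraries, Tcf7 was thus the most abundant messenger of the family on this scale and Tcf7l2 the least. Without the lengths, mean levels were 142.7 CPM for Tcf7, 110.2 for Tcf7l1, 107.9 for Lef1 and 40.1 for Tcf7l2.

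**Figure D1:**
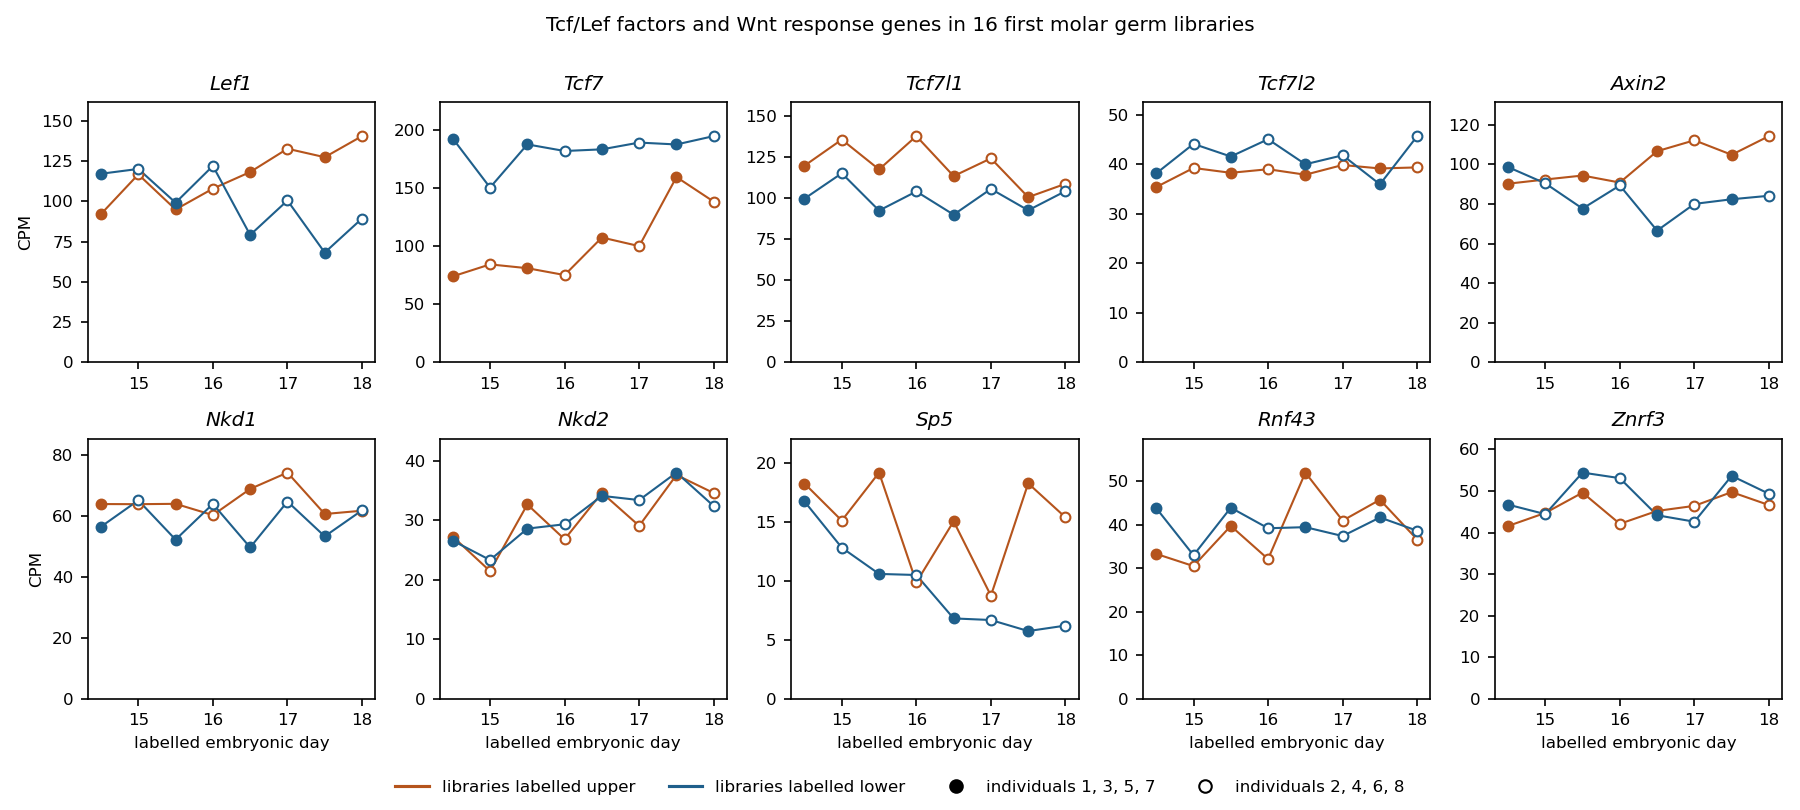
Level of each gene (CPM, axis from 0) against labelled embryonic day in the 8 libraries labelled upper (brown) and the 8 labelled lower (blue). Filled points are individuals 1, 3, 5 and 7, and open points are individuals 2, 4, 6 and 8. Tcf7 ran from 73.8 to 159.2 CPM in the upper label and from 150.1 to 194.4 CPM in the lower, and Tcf7l1 zigzagged with stage in both.

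Between the tooth labels, Tcf7 was the gene that differed most. It is a Tcf factor that mostly activates genes together with beta-catenin. Its lowest, median and highest levels were 73.8, 91.9 and 159.2 CPM in the libraries labelled upper and 150.1, 187.3 and 194.4 CPM in those labelled lower. Only the upper library of ED17.5 reached the range of the lower label, and within every individual the upper library was the lower of the pair, 8 of 8. The difference, labelled upper minus labelled lower, was -0.88 ± 0.11 on the log2 scale (SE, edgeR quasi-likelihood test with stage as a spline, adjusted p = 3.22e-05), or 1.84-fold. As these are whole germs, more cells of a type and more RNA per cell cannot be told apart.

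Tcf7 is also a gene of T cells, so lymphocyte markers were measured beside it. The 10 markers summed to 9.41 to 18.2 CPM per library, most of it from Lck and Rag1, and 5 of the 10 stayed under the low-count filter in every library. The T cell receptor gene Cd3e had 7 counts and Cd8a had 4 over all 16 libraries. The sums overlapped between the labels, 9.41 to 13.7 CPM in the upper and 9.89 to 18.2 CPM in the lower. The 2 main markers moved in opposite directions. Median Rag1 was 1.49 CPM in the upper label and 6.76 CPM in the lower, and median Lck was 7.33 and 5.61 CPM. Of the 4 markers tested, 1 was higher in the upper label and 1 in the lower. Their part in the difference of Tcf7 was not tested.

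The remaining factors differed less. Tcf7l1, which mostly represses Wnt targets until beta-catenin displaces it, ran in the opposite direction to Tcf7: 100.7, 118.7 and 137.9 CPM (lowest, median, highest) in the upper label against 90.0, 101.9 and 115.2 CPM in the lower. The ranges overlapped, but the upper library was the higher in 8 of 8 individuals, and the log2 difference was 0.26 ± 0.06 (edgeR, adjusted p = 0.00658). Tcf7l2, a factor best known from the gut, had 35.4 to 39.9 CPM in the upper label and 36.0 to 45.7 CPM in the lower, a log2 difference of -0.10 ± 0.04 that missed the threshold (edgeR, adjusted p = 0.0668). It passed in 3 of 15 alternatives, in DESeq2 (adjusted p = 0.0468), without individual 7 (0.0125) and with the alternating group as a term (0.0265). Lef1 did not pass either (0.24 ± 0.13, edgeR, adjusted p = 0.169), with the upper library above the lower in 4 of 8 individuals.

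Among the 6 response genes, Sp5 and Axin2 differed between the labels. Sp5, a zinc finger transcription factor gene that Tcf and Lef proteins bind directly, had 8.72, 15.2 and 19.2 CPM (lowest, median, highest) in the upper label and 5.72, 8.63 and 16.7 CPM in the lower. It was higher in the upper library of 7 of 8 individuals, by 0.74 ± 0.18 (log2, edgeR, adjusted p = 0.00487). Axin2 had 90.3, 99.7 and 114.4 CPM in the upper label and 66.5, 83.3 and 98.7 CPM in the lower, higher in 7 of 8 individuals, by 0.27 ± 0.07 (log2, edgeR, adjusted p = 0.00932).

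The Dishevelled-binding and receptor-removing genes showed no difference past the threshold. The log2 difference of Nkd1 was 0.15 ± 0.07 (edgeR, adjusted p = 0.0881, and 0.0277 with the alternating group as a term), and that of Nkd2 was -0.001 ± 0.079 (adjusted p = 0.992). Rnf43 had -0.03 ± 0.10 (edgeR, adjusted p = 0.82) and its paralogue Znrf3 -0.08 ± 0.06 (adjusted p = 0.294). In all, 3 of the 10 genes were higher in the upper label and 1 in the lower, 4 of 10, where 36.2% of the 16287 genes tested passed (18.1% in each direction). None of the 10 had levels that did not overlap between the labels, against 6.4% of all genes. The share of the 10 that differed was thus near that of genes at large.

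**Figure D2:**
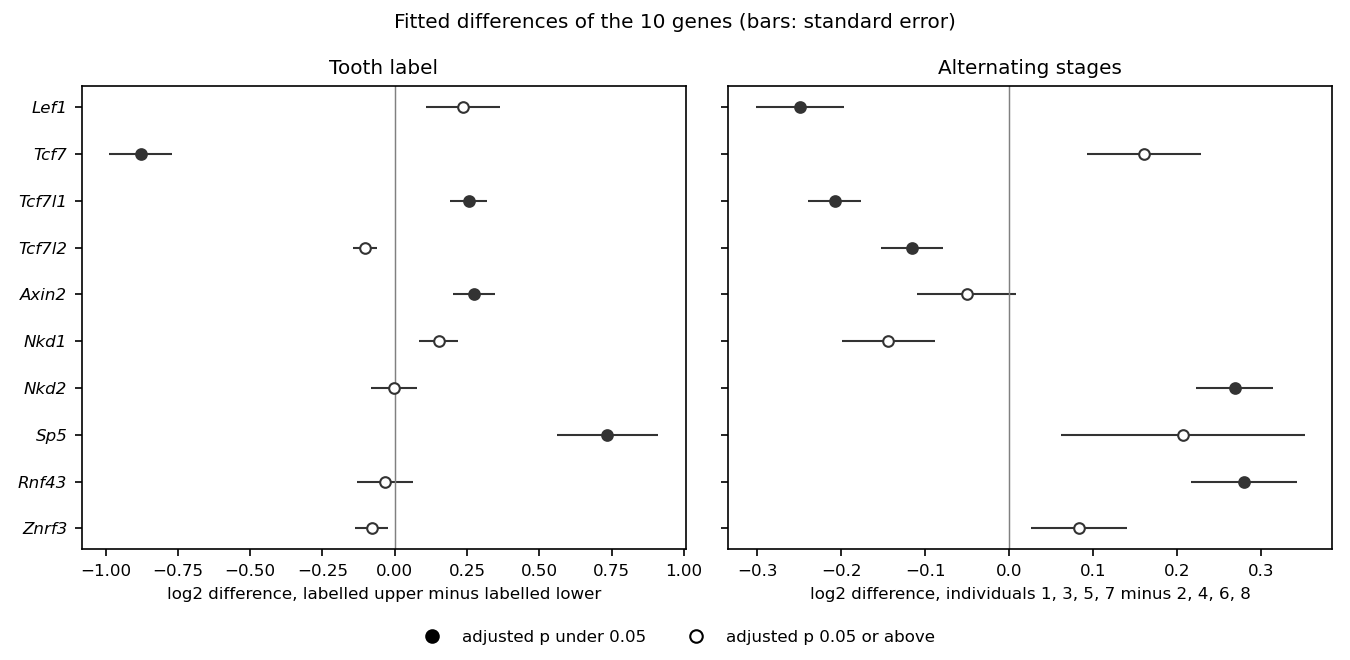
Log2 difference of each gene between the tooth labels (left, upper minus lower) and between alternating stages (right, individuals 1, 3, 5 and 7 minus 2, 4, 6 and 8), with standard errors from the fit over 16 libraries. Filled points passed an adjusted p of 0.05. Tcf7 stands apart on the left at -0.88, and on the right Nkd2 and Rnf43 lie above 0 while Lef1, Tcf7l1 and Tcf7l2 lie below. The horizontal scales of the panels differ.

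Enamel knot markers differed between the labels as well. The 8 markers summed to 229.5 to 390 CPM per library in the upper label and 449.5 to 1028 CPM in the lower, which do not overlap, and 5 of the 8 were higher in the lower label and 1 in the upper. Shh weighed most in the lower label, with a median of 370.8 CPM against 85.7 CPM in the upper. Fgf4 overlapped (1.72 to 7.73 CPM in the upper label, 4.15 to 12.3 CPM in the lower), and median Bmp4 was 104.5 CPM in the upper label and 79.5 CPM in the lower. Of the dental mesenchyme markers, 4 of 8 were higher in the upper label and none in the lower. Of the 7 dental epithelium markers, 2 were higher in the upper label and 2 in the lower. The share of all genes that passed was 18.1% in each direction. Markers of other cells also moved with the label. All 6 osteoclast markers were higher in the lower label (summed 84.0 to 537 CPM against 69.6 to 159.8 CPM in the upper), as were 4 of the 5 oral cornifying markers tested (174.9 to 1470 against 78.5 to 379.2 CPM) and 3 of 6 macrophage markers (65.3 to 134.1 against 63.3 to 94.6 CPM). Of 6 erythroid markers, 4 were higher in the upper label (33.9 to 146.9 against 14.9 to 32.8 CPM). The part of any of these in the values of Tcf7, Sp5, Axin2 and Tcf7l1 was not tested.

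The make-up of the Tcf/Lef family followed from these levels. Of the CPM per kb summed over the 4 factors, Tcf7 held 43.9% ± 7.68 (SD, n = 8) in the upper label, from 35.5% to 57.6%, and 62.6% ± 3.88 in the lower, from 54.3% to 66.8%. Lef1 held 13.8% to 16.9% in the upper label and 7.26% to 13.0% in the lower. Tcf7l1 held 24.4% to 43.7% in the upper label and 21.2% to 27.9% in the lower. In the upper label Tcf7l1 had a larger share than Tcf7 at ED14.5 (41.7% against 38.4%), ED15.0 (41.0% against 37.9%) and ED16.0 (43.7% against 35.5%), whereas Tcf7 led at every stage of the lower label. These shares depend on the exon lengths. In CPM without length, Tcf7l1 was above Tcf7 in the upper label also at ED15.5 (117.6 against 80.8), ED16.5 (113.5 against 107.2) and ED17.0 (124.3 against 99.8).

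**Figure D3:**
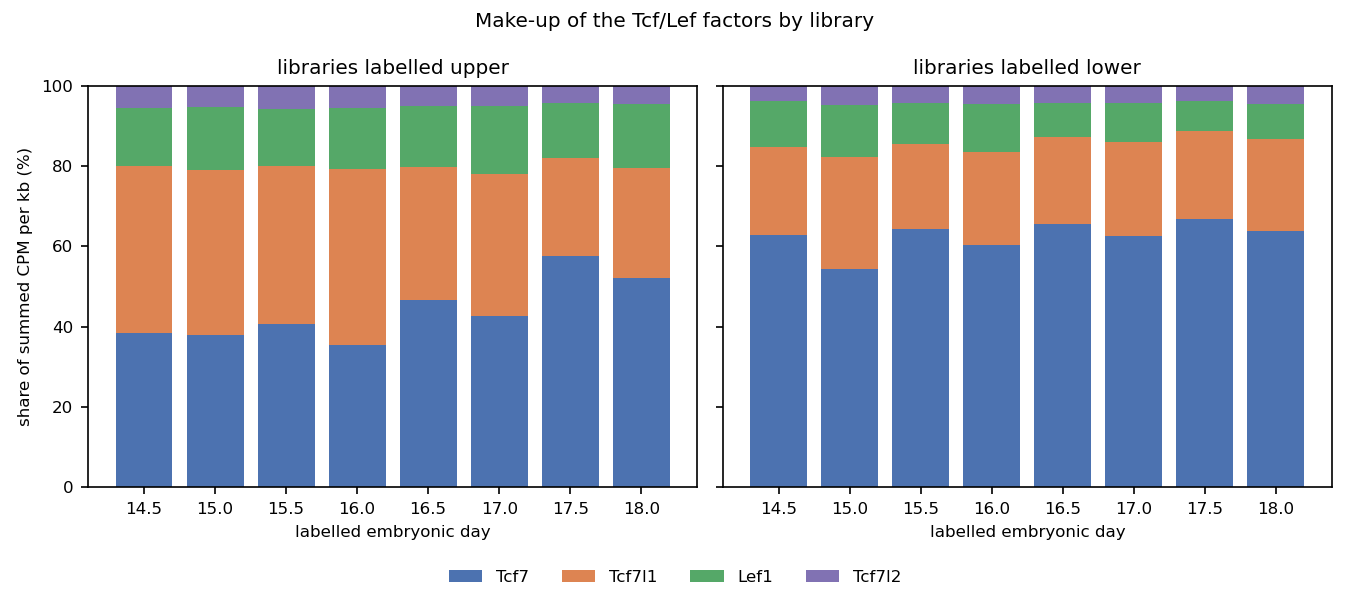
Share of each Tcf/Lef factor in their summed CPM per kb (%), stacked from 0 to 100 for each library, by labelled embryonic day, with the 8 libraries labelled upper on the left and the 8 labelled lower on the right. The Tcf7 share in the upper label was between 35.5% and 40.5% up to ED16.0 and reached 57.6% at ED17.5, while in the lower label it stayed between 54.3% and 66.8%.

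Over stages, 3 genes rose inside the upper label: Tcf7, Lef1 and Axin2. The levels of Tcf7 in the upper libraries from ED14.5 to ED18.0 were 73.8, 84.1, 80.8, 74.9, 107.2, 99.8, 159.2 and 138.0 CPM, flat over the first 4 stages and higher in each of the last 4. Its slope was 0.30 ± 0.05 log2 units per day (edgeR, 8 libraries, adjusted p = 0.0171). Lef1 went from 92.1, 116.7, 94.9 and 107.9 CPM at the first 4 stages to 118.2, 132.7, 127.4 and 140.6 CPM at the last 4, with a slope of 0.15 ± 0.03 (edgeR, adjusted p = 0.0283).

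Axin2 likewise ran from 90.3 to 94.4 CPM over the first 4 upper stages and from 104.9 to 114.4 CPM over the last 4, with a slope of 0.10 ± 0.02 (edgeR, adjusted p = 0.0294). The 3 calls compare with 3.72% of all genes rising and 2.41% falling with stage in this label, and none of the 10 fell. With the alternating group as a term 6 passed: Tcf7l1 fell (-0.10 ± 0.02, edgeR, adjusted p = 0.0163), and Nkd2 (0.18 ± 0.03, adjusted p = 0.00286) and Rnf43 (0.14 ± 0.04, adjusted p = 0.0499) rose beside the 3. The first 4 and last 4 stages of each label were on different lanes of the flow cell. With lane as a term none of the 3 passed: the slopes were 0.18 for Tcf7, 0.11 for Lef1 and 0.03 for Axin2 (edgeR, adjusted p = 0.604, 0.614 and 0.827), and lane and stage are largely the same here. Without individual 1 the adjusted p was 0.0681 for Tcf7, 0.175 for Lef1 and 0.128 for Axin2, and without individual 8 it was 0.0688, 0.125 and 0.126. Without individual 6, Tcf7 alone passed, and Axin2 also missed the threshold without individual 2 (0.0805) or 3 (0.0649). Skeletal muscle markers summed to 2.32 to 47.2 CPM in the upper label, and 5 of 7 rose with stage, as did 2 of the 5 oral cornifying markers tested, while 4 of 6 erythroid markers fell. Their part in these slopes was not tested.

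Inside the lower label 1 gene, Sp5, passed the test for a change with stage. It had 16.7, 12.8, 10.6, 10.5, 6.79, 6.66, 5.72 and 6.19 CPM from ED14.5 to ED18.0, lower at each of 6 of the 7 steps. Its slope was -0.43 ± 0.05 log2 units per day (edgeR, adjusted p = 0.0071), where 1.49% of all genes fell and 2.63% rose. Nkd2 had a slope of 0.16 ± 0.04 (edgeR, adjusted p = 0.0522), which passed with the alternating group as a term (0.18 ± 0.03, adjusted p = 0.00473) and in DESeq2 (adjusted p = 0.00472). With lane as a term the slope of Sp5 was -0.30 ± 0.10 (edgeR, adjusted p = 0.233), and without individual 1 it was -0.39 ± 0.06 (adjusted p = 0.0589). In the upper label Sp5 had a slope of -0.07 ± 0.10 (edgeR, adjusted p = 0.725), and the difference of the slopes, 0.37 ± 0.13, did not pass (edgeR, adjusted p = 0.175).

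Lef1 is the gene whose course differed between the labels. In the lower label it had 117.1, 120.1, 99.1 and 122.0 CPM at the first 4 stages and 79.1, 100.5, 68.1 and 89.3 CPM at the last 4, a slope of -0.17 ± 0.06 that missed the threshold (edgeR, adjusted p = 0.118), while it rose in the upper label as given above. The lower slope passed with the alternating group as a term (-0.21 ± 0.03, edgeR, adjusted p = 0.00182) and in DESeq2 (adjusted p = 0.037). Within individuals the upper library was below the lower one at each of the first 4 stages, by log2 values of -0.33 to -0.04, and above it at each of the last 4, by 0.41 to 0.88. The sign changed where the lane changed in both labels. The slope in the upper label exceeded that in the lower by 0.32 ± 0.07 log2 units per day (edgeR, interaction over 16 libraries, adjusted p = 0.0361). This difference was not refitted with lane as a term.

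That call was 1 of the 10 genes, against 0.682% of all genes with a more positive slope in the upper label and 0.577% in the lower. It missed the threshold without individual 1, 2, 3, 6, 7 or 8, at an adjusted p of 0.0543 to 0.213, and its size stayed between 0.29 and 0.37 whichever individual was left out. The differences of slope of Tcf7 (0.25 ± 0.07, edgeR, adjusted p = 0.075) and Axin2 (0.16 ± 0.05, adjusted p = 0.143) did not pass. Tcf7 passed in the fit with the alternating group as a term (edgeR, adjusted p = 0.0258) and in DESeq2 (adjusted p = 0.0154).

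**Figure D4:**
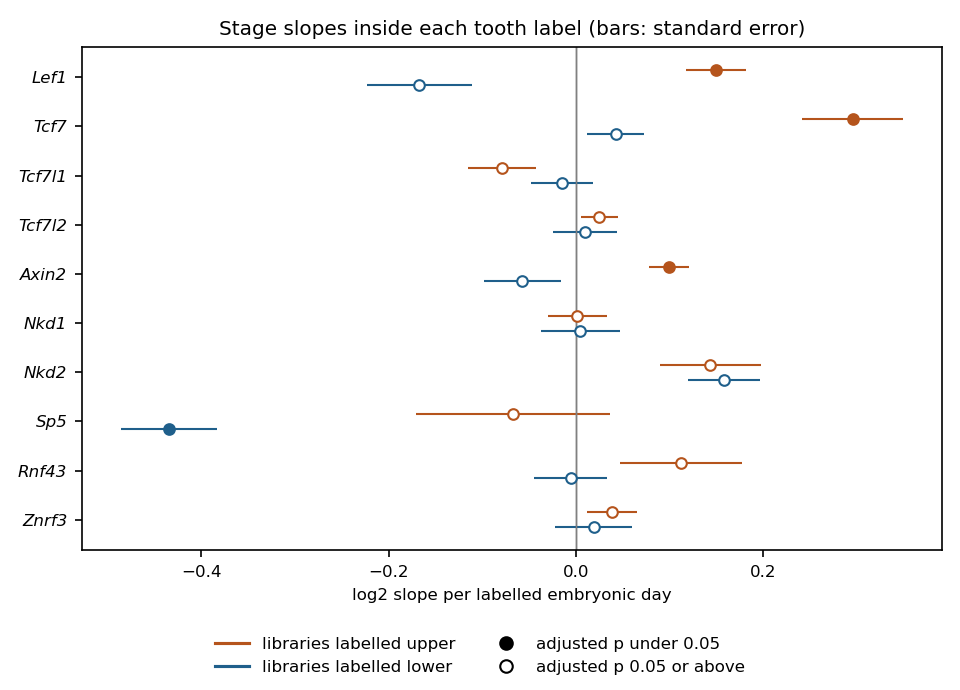
Slope of each gene per labelled embryonic day (log2), fitted in the 8 libraries labelled upper (brown) and in the 8 labelled lower (blue), with standard errors. Filled points passed an adjusted p of 0.05. Tcf7, Lef1 and Axin2 lie above 0 in the upper label and Sp5 lies at -0.43 in the lower, and the slopes of Lef1 lie on either side of 0.

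Alternating stages separated 5 of the 10 genes, 2 higher in individuals 1, 3, 5 and 7 and 3 higher in individuals 2, 4, 6 and 8, where 15.1% of all genes passed (6.67% and 8.42%). The fit counts the 2 libraries of an individual as independent, so p-values over both labels rest on 8 libraries of 4 individuals per group. Tcf7l1 gave the smallest p. In the upper label it had 119.8, 117.6, 113.5 and 100.7 CPM in individuals 1, 3, 5 and 7 and 135.8, 137.9, 124.3 and 108.8 CPM in individuals 2, 4, 6 and 8. In the lower label it had 99.7, 92.5, 90.0 and 92.6 CPM against 115.2, 104.1, 105.7 and 104.3 CPM, without overlap. The log2 difference was -0.21 ± 0.03 (edgeR, adjusted p = 0.000382), and the call held in each label alone (-0.21 in both, adjusted p = 0.0274 in the upper and 0.0238 in the lower). Within the upper label alone 3 genes passed, Tcf7l1, Nkd2 and Rnf43, where 3.21% of all genes were higher in individuals 1, 3, 5 and 7 and 5.05% in the others. Within the lower alone 3 passed, Tcf7l1, Lef1 and Nkd1, where the shares were 2.86% and 3.62%.

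Lef1 was higher in the same 4 individuals as Tcf7l1, by a log2 difference of -0.25 ± 0.05 (edgeR, adjusted p = 0.00438). In the lower label alone the difference was -0.36 ± 0.06 (edgeR, adjusted p = 0.00676) and in the upper alone -0.14 ± 0.06 (adjusted p = 0.211), and with 1 spline of stage shared by the labels the call was lost (-0.25, adjusted p = 0.201). Tcf7l2 had the smallest difference called, -0.12 ± 0.04 (edgeR, adjusted p = 0.0458), and that call was lost in 12 of 16 alternatives, among them both labels alone, no filter on low counts (adjusted p = 0.0549) and all but 1 of the left-out individuals (adjusted p up to 0.155). Even so Tcf7l2 was in the same order at all 7 steps between neighbouring stages of both labels.

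The other direction was taken by a pair of feedback genes. Rnf43 had 33.3, 39.7, 52.0 and 45.7 CPM in individuals 1, 3, 5 and 7 and 30.5, 32.1, 40.9 and 36.6 CPM in individuals 2, 4, 6 and 8 of the upper label, and 43.8, 43.9, 39.4 and 41.7 CPM against 33.0, 39.2, 37.4 and 38.6 CPM in the lower label, where the groups did not overlap. The log2 difference was 0.28 ± 0.06 (edgeR, adjusted p = 0.00669), and without individual 2 it was 0.25 (adjusted p = 0.0526). Nkd2 had 27.3, 32.7, 34.7 and 37.7 CPM against 21.5, 26.8, 29.1 and 34.6 CPM in the upper label, and 26.6, 28.6, 34.1 and 38.1 CPM against 23.3, 29.4, 33.4 and 32.4 CPM in the lower, overlapping in both. Its log2 difference was 0.27 ± 0.05 (edgeR, adjusted p = 0.00094).

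Nkd1, the paralogue of Nkd2, did not pass over both labels (-0.14 ± 0.06, edgeR, adjusted p = 0.0968). In the lower label alone it was higher in individuals 2, 4, 6 and 8, 65.0, 63.8, 64.6 and 61.7 CPM against 56.4, 52.1, 49.6 and 53.2 CPM in the others, a log2 difference of -0.28 ± 0.05 (edgeR, adjusted p = 0.00749). In the upper label it was -0.01 ± 0.07 (edgeR, adjusted p = 0.949). The log2 differences of Tcf7 (0.16), Sp5 (0.21), Axin2 (-0.05) and Znrf3 (0.08) did not pass (edgeR, adjusted p = 0.132, 0.384, 0.627 and 0.377). With lane within the flow cell as terms 6 genes passed, Tcf7l2 no longer (adjusted p = 0.0904) but also Znrf3 (0.15 ± 0.04, edgeR, adjusted p = 0.0222) and Nkd1 (-0.17 ± 0.05, adjusted p = 0.0221).

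In the lower label 4 of the 10 genes (Tcf7l1, Tcf7l2, Nkd1 and Rnf43) had levels that did not overlap between the alternating groups, against 7.51% of all genes, and in the upper label none did, against 9.55%. Tcf7l1, Tcf7l2 and Rnf43 kept 1 order at all 7 steps in both labels, as did 7.26% of all genes. Whether the alternating difference itself differed between the labels was tested as an interaction, and none of the 10 passed (edgeR), against 0.81% of all genes. At an unadjusted p under 0.05 there were 3, Nkd1 (0.0105), Sp5 (0.0172) and Lef1 (0.0238), DESeq2 called none, and without individual 2 Lef1 passed (edgeR, adjusted p = 0.0333).

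Tissue markers alternated with the same individuals. The 7 dental epithelium markers summed to 3664 to 4677 CPM in individuals 1, 3, 5 and 7 and to 2716 to 3649 CPM in individuals 2, 4, 6 and 8, without overlap over both labels, and 6 of the 7 were higher in the first group. The 8 dental mesenchyme markers summed to 2961 to 3478 against 3798 to 4405 CPM in the upper label and to 2485 to 3057 against 3237 to 3776 CPM in the lower, and 6 of the 8 were higher in individuals 2, 4, 6 and 8. None of the 8 was higher in the other group. Of 8 enamel knot markers, 3 were higher in individuals 1, 3, 5 and 7 and none in the others. The shares of all genes were 6.67% higher in individuals 1, 3, 5 and 7 and 8.42% higher in the others. Individuals 2, 4, 6 and 8 were higher in 3 of 6 nerve and Schwann cell markers and 2 of 6 erythroid markers, and lower in none of them. The part of any of these markers in the values of Tcf7l1, Lef1, Tcf7l2, Rnf43 and Nkd2 was not tested, nor was that of the alternation of Pou3f3 (log2 difference -3.83 ± 0.08, edgeR, adjusted p = 3.18e-14).

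**Figure D5:**
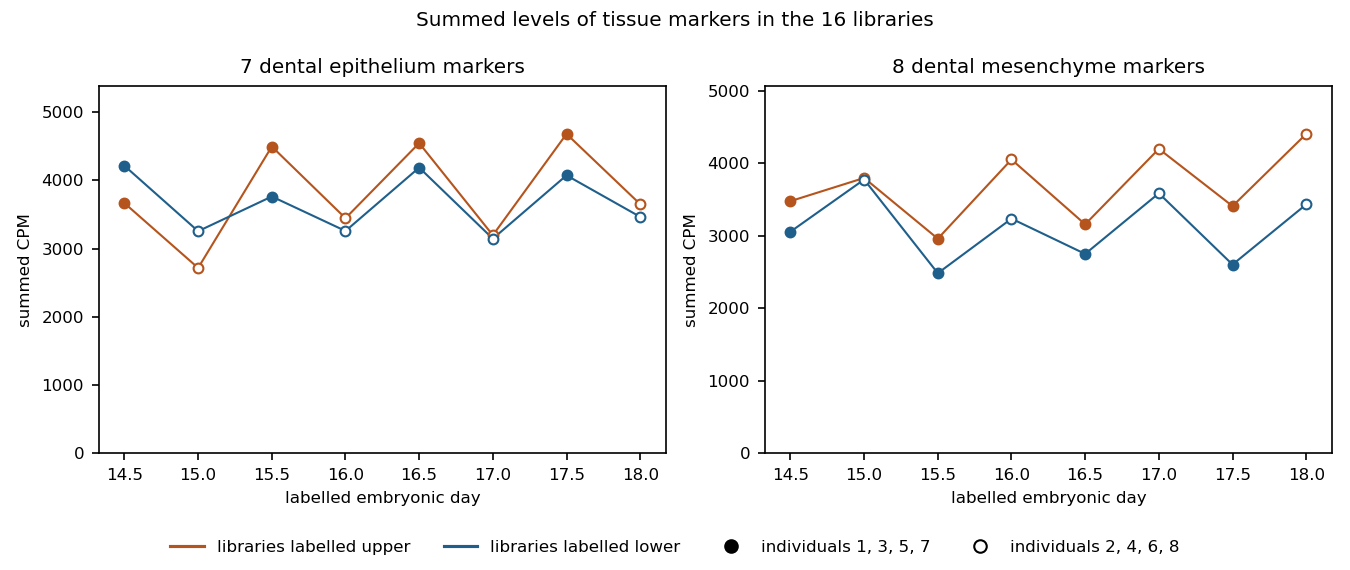
Summed level (CPM, axes from 0) of 7 dental epithelium markers (left) and 8 dental mesenchyme markers (right) against labelled embryonic day, for libraries labelled upper (brown) and lower (blue). Filled points are individuals 1, 3, 5 and 7, and open points individuals 2, 4, 6 and 8. Epithelial sums are higher at the filled points, 3664 to 4677 CPM against 2716 to 3649 CPM, and mesenchymal sums are higher at the open points within each label.

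Other genes of the pathway were read from 6 lists, of which 85 genes were tested. Between the tooth labels 27 were higher in the upper label and 24 in the lower, where 18.1% of all genes passed in each direction. Ligands had 3 higher in the upper label and 7 in the lower of 16, with a median log2 difference of -0.23 against 0.006 over all genes. Wnt3a (15.9 ± 5.66 CPM in the upper label against 36.3 ± 11.2 CPM in the lower, SD, n = 8 libraries) and Wnt6 (48.2 ± 4.90 against 66.3 ± 7.56 CPM) were higher in the lower label, as was Wnt7a, with the largest log2 difference of the 3 (-1.72 ± 0.20, edgeR, adjusted p = 1.63e-05).

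Receptors and their modulators split 6 to 4 of 15 between the labels. Lgr5, which binds R-spondins and so counters Rnf43 and Znrf3, was higher in the upper label, by 1.59 ± 0.17 on the log2 scale (edgeR, adjusted p = 1.09e-05), whereas its relative Lgr6 was higher in the lower (-0.69 ± 0.08, adjusted p = 1.52e-05). Of 17 genes of signal transduction 5 were higher in the upper label and 2 in the lower, and of 16 nuclear cofactors 7 and 2. Of 13 secreted inhibitors 3 were higher in the upper label and 5 in the lower. Dkk2, which blocks Lrp co-receptors, had 69.9 ± 11.2 against 20.2 ± 5.71 CPM (SD, n = 8), a log2 difference of 1.82 ± 0.10, while Notum, an enzyme that inactivates Wnt proteins, and Wif1, which binds them, were higher in the lower label (-0.80 ± 0.10 and -0.98 ± 0.14). All 3 passed (edgeR, adjusted p = 6.6e-08, 3.12e-05 and 9.11e-05).

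Of 8 further targets 3 were higher in the upper label and 4 in the lower. Ccnd1, a cyclin of the cell cycle, had 158.2 ± 28.7 CPM in the upper label and 337.9 ± 73.4 CPM in the lower (SD, n = 8), a log2 difference of -1.08 ± 0.05 (edgeR, adjusted p = 1.09e-08). Bambi was lower in the upper label too (-1.19 ± 0.12) and Myc was higher (0.46 ± 0.06), with an adjusted p of 4.44e-06 and 3.92e-05 (edgeR). The targets of the pathway, Axin2, Sp5 and Myc on 1 side and Ccnd1 and Bambi on the other, were thus not all higher in 1 label.

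In the alternating contrast 14 of the 85 genes were higher in individuals 1, 3, 5 and 7 and 12 in individuals 2, 4, 6 and 8, where the shares of all genes were 6.67% and 8.42%. Of 13 secreted inhibitors 4 were higher in individuals 2, 4, 6 and 8 and 1 in the others. Among the 4 were Frzb (191.6 ± 62.2 against 246.3 ± 64.7 CPM, SD, n = 8 libraries of 4 individuals, both labels), Dkk3 (98.2 ± 6.64 against 130.1 ± 14.7 CPM) and Sfrp1 (149.0 ± 12.8 against 180.1 ± 21.6 CPM). The receptor gene Fzd1 went the same way (-0.44 ± 0.03, edgeR, adjusted p = 6.38e-07), and Fzd3 and Fzd5 the other (0.30 ± 0.04 and 0.33 ± 0.04, adjusted p = 5.57e-05 and 7.26e-05). Of 16 ligands 6 were higher in individuals 1, 3, 5 and 7 and 2 in the others. Wnt3a was among the 6 (0.57 ± 0.08, edgeR, adjusted p = 0.000155). Wnt2, at a low level, was among the 2, with 0.773 ± 1.10 CPM in individuals 1, 3, 5 and 7 and 3.36 ± 3.0 CPM in the others (SD, n = 8 libraries of 4 individuals). Its log2 difference was -2.90 ± 0.24 (edgeR, adjusted p = 1.59e-06). Ctnnb1, the gene of beta-catenin, was 0.14 ± 0.03 higher in individuals 1, 3, 5 and 7 (log2, edgeR, adjusted p = 0.00304).

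With stage, 8 of the 85 rose and 5 fell in the upper label, where 3.72% and 2.41% of all genes did. In the lower label 3 rose and none fell, where the shares were 2.63% and 1.49%. The slope of 1 of the 85 was more positive in the upper label and none was in the lower, against 0.682% and 0.577% of all genes. The genes most like Axin2 in their course over the 16 libraries, among 12468 searched, were Egfr (Pearson r 0.92, Spearman rho 0.83 of log2 CPM), Npnt (0.92 and 0.96) and Tmem201 (0.90 and 0.88). Those most like Lef1 were Mab21l1 (0.94 and 0.93), Dbx2 (0.94 and 0.94) and Rab6b (0.90 and 0.90). These genes were picked for the highest r, so no test is given, and the libraries share tooth label, stage and individual.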

How the data were processed

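The 16 libraries were poly(A) RNA of mouse first molar germs, read as pairs, per the labels. Raw whole-number counts for each gene symbol are what the authors deposited. The submitters' processing notes name TopHat2 2.0.6, Bowtie2 2.0.2, HTSeq 0.5.3p9 and the build mm10. The annotation and the strand setting of the counting were not given in the sources used here. Each table had 23337 genes and 5 summary lines, which were left out of library sizes and tests. Reads on no feature were 11.8% to 14.1%, ambiguous ones 0.896% to 1.07% and not uniquely placed ones 6.07% to 6.67% of all lines. No 2 of the 16 libraries were identical.

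The 10 genes, the pathway lists and the markers were chosen with earlier results of these data known. All 10 genes are reported. Of each pathway list up to 3 genes were taken by smallest p with a mean count of at least 50, of which some are printed. For likeness, the 3 genes of highest Pearson r were taken. Genes with 0.269 CPM (10 counts at median depth) in at least 2 libraries were tested, 16287 in all. The tests used edgeR 4.0.16 in R 4.3.3 (TMM, quasi-likelihood F test, Benjamini-Hochberg adjustment over all genes, threshold 0.05). The fits were also run on simulated counts of independent libraries, with changes larger than many called here. Calls of smaller changes, and libraries that share an individual or lane, were not checked that way. An SE is the log2 value over the square root of F. The tooth contrast used a natural spline of stage with 3 degrees of freedom, the alternating contrast each label's own linear stage. Log2 CPM used a prior count of 2, and lengths are exon unions of GENCODE M21. DESeq2 1.42.0, other scaling, no filter, each individual left out, lane, spline and alternating terms and the individual as a block were alternatives. The labels pair the libraries of a stage as 1 individual, and their deviations from the label means correlated at 0.121 to 0.279 in the 8 pairs. Counting error is part of the spread given between libraries, and how large a part was not tested for any gene. Sp5 was the gene with the fewest counts.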

Additional observations from a re-analysis of the deposited data

Results flagged for a closer look

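The level of Tcf7 in the library labelled lower of individual 2 (ED15.0) was 150.1 CPM, below the 181.6 to 194.4 CPM of the other 7 libraries of that label, a gap that is large for the range of the group. Tcf7l2 in the library labelled upper of individual 1 (ED14.5) was 35.4 CPM, below the 37.9 to 39.9 CPM of the other 7. Both came from 20 groups of 8 libraries examined this way, where chance marks about 1 in 20. The log2 difference of Tcf7 between the labels stayed between -0.98 and -0.81 whichever individual was left out.

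The slope of Lef1 per day differed between the labels by 0.32 on the log2 scale (edgeR interaction, adjusted p = 0.0361), rising in the upper label and not passing the threshold in the lower. Its adjusted p ran from 0.0439 to 0.213 over the 8 fits that each left out 1 individual. The lanes changed between the first 4 and last 4 stages of both labels, and no fit of this difference had lane as a term.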

How the results depend on the processing

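No called value changed sign. The 4 calls between tooth labels held in all 15 alternatives, with 4 to 6 genes called. Numbers called are given from here on. With each individual left out in turn, rising or falling genes in the upper label ranged from 0 to 3 (3 with all individuals), in the lower label from 0 to 1 (1), slope differences from 0 to 1 (1), alternating differences from 3 to 5 (5), and their interaction with the label from 0 to 1 (0). DESeq2 gave 3 in the lower label and 2 slope differences. The alternating group as a term gave 6 in the upper label, 3 in the lower and 2 slope differences. Lane as a term left 0 in the upper label and 0 in the lower, and slope differences were not fitted with it. For the alternating contrast, 1 shared spline of stage gave 3, the upper label alone 3 and the lower label alone 3. The cause was not tested, except that leaving out individuals or 1 label leaves fewer libraries. With the individual as a replicate block the tooth contrast kept 4, the slope difference 1 and the interaction 0, and this pairing changed no call. The slopes inside a label and the alternating contrast have no such fit, since stage, group and individual coincide there. The lowest count behind any of these values was 229, for Sp5, and the part of counting error in the spread was not tested.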
